A study of Mus musculus with 6 samples.

Results

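The Myc, Max and Mxd network was followed in 10 genes, chosen by name as the measured core of this transcription factor family: Myc, Mycn, Max, Mxd1, Mxd3, Mxd4, Mxi1, Mnt, Mga and Mlx. They are 10 of the 16729 genes counted by RNA-seq in tumors of mG7080 cells, a gliomasphere line derived from a genetically engineered mouse model of glioblastoma. All 10 passed the filter on low counts. The line was injected into the brains of C57BL/6 mice, and the tumors were frozen and sequenced in bulk, with 3 libraries for Esm1 WT hosts, named WT 1 to WT 3, and 3 for Esm1 KO hosts, named KO 1 to KO 3. Esm1 encodes Endocan, a proteoglycan secreted by activated endothelial cells, and the KO hosts lacked the gene while the injected cells were the same in both groups. All hosts were female according to the study's reporting summary. All 6 tumors came from 1 cell line, and a library mixes RNA of the tumor with RNA of host brain, vessels and immune cells, so fewer cells of a type and less RNA per cell cannot be told apart. The comparison asks how the network differs between tumors that grew with and without host Endocan.

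Proteins of this family carry a basic helix-loop-helix leucine zipper and bind DNA as pairs, with the E-box CACGTG as their preferred site. Myc and Mycn pair with Max and recruit histone acetyltransferases and elongation factors to activate genes for ribosome assembly, nucleotide synthesis and cell division. The Mxd proteins, Mxi1 and Mnt compete for the same partner and bring the Sin3 corepressor with its histone deacetylases, while Mga pairs with Max inside a Polycomb complex and Mlx pairs with the glucose-responsive Mondo proteins as well as with some Mxd members and Mnt. In the brain, Myc and Mycn are known from progenitors and from glioma, and most Mxd genes are known from cells leaving the cell cycle.

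Esm1, the gene deleted in the KO hosts, was read first. Esm1 (chr13:113209659-113218104, GRCm38.p6) had 25 counts in WT 1, 21 in WT 2 and 82 in WT 3, against 1 count in KO 1, 24 in KO 2 and 4 in KO 3. Scaled to library size, this was 1.19, 1.09 and 4.05 CPM in the WT libraries and 0.057, 1.07 and 0.208 CPM in KO 1, KO 2 and KO 3. All KO libraries were thus below all WT libraries, but the library labelled KO 2 was close to WT 1 and WT 2 and far above KO 1 and KO 3. Its level puts the label in doubt without settling it. The fits across genes are therefore given over all 6 libraries by label and over WT 1, WT 2, KO 1 and KO 3, the 4 libraries that the study used in its own table of this experiment. Both comparisons share libraries, so they are not independent. Over 6 libraries Esm1 differed by -2.20 on the log2 scale (SE 1.01, KO minus WT), with an adjusted p of 0.192 by edgeR's quasi-likelihood test (Benjamini-Hochberg adjustment across every gene tested), which is the adjusted p given throughout. Over 4 libraries it fell by 3.02 (SE 0.64, adjusted p = 0.0425). That call ended without KO 1, KO 3 or WT 2, where the adjusted p of Esm1 was 0.13, 0.118 and 0.0685.

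Levels are given as CPM, read counts scaled to library size with TMM factors, and as the authors' FPKM where genes are compared with each other, since only FPKM takes gene length into account. Between 17632070 and 22241832 reads were counted per library, and a single read was worth 0.0445 to 0.057 CPM. Over 6 libraries no gene of 16166 passed an adjusted p under 0.05 (0.0% lower and 0.0% higher in KO), while at an unadjusted p under 0.05 the shares were 11.9% lower and 15.2% higher. With the same 6 libraries DESeq2 called 410 genes lower and 709 higher, edgeR's exact test called 81 and 107, and limma-voom called 0 and 0. Over 4 libraries 13.9% of 16183 genes fell and 2.87% rose at an adjusted p under 0.05. By position alone, all 3 KO libraries lay below all 3 WT libraries for 14.6% of genes and above them for 13.2%.

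Sequences of the E-boxes within the network's own promoters are shown because they are the letters its proteins bind. A promoter here is the window from 250 bases before to 50 bases after a transcription start in RefSeq (GRCm38.p6), and CACGTG, which reads the same on both strands, was searched in it. It stood in 7.15% of all 32851 windows and in 9.18% of the 15580 windows of genes in this table. Of the 9 members with a window, 4 had it, in 4 of 11 windows (36.4%). Myc had no window and was not searched. The sites of Max (chr12:76962234-76962263, minus strand), Mlx (chr11:101087238-101087267, plus strand), Mnt (chr11:74830789-74830818, plus strand) and Mxd4 (chr5:34187912-34187941, minus strand) read as follows, 5′ to 3′ on the gene's strand, with the E-box in capitals.
Max: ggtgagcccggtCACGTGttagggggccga
Mlx: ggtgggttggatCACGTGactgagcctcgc
Mnt: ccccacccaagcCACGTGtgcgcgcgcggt
Mxd4: gggctgggccacCACGTGctgttgctaagc
The 4 sites share the 6 E-box letters and differ in the flanks. A match describes the letters of a window and does not show that a protein was bound there in these tumors.

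Myc, the main activator of the network, had the largest difference of the 10 members. Myc (chr15:61985341-61990361) was measured at 168 CPM in WT 1, 285 CPM in WT 2 and 190 CPM in WT 3, against 8.78 CPM in KO 1, 131 CPM in KO 2 and 4.17 CPM in KO 3. All KO libraries lay below all WT libraries, but they split, with KO 1 and KO 3 an order of magnitude below the library labelled KO 2, which stood just under the lowest WT library. Over 6 libraries the difference was -2.19 (SE 1.25), which did not pass the test (adjusted p = 0.247). Over 4 libraries Myc fell by 5.14 (SE 0.52, adjusted p = 0.0343), and mean CPM in KO was 0.0286 of that in WT. Counted from the most negative log2 fold change, it held rank 106 of 16166 genes over 6 libraries and rank 76 of 16183 over 4. Pvt1, a long noncoding RNA gene next to Myc, showed the same split, at 260, 472 and 468 CPM in the WT libraries and at 29.3, 247 and 10.4 CPM in KO 1, KO 2 and KO 3. Pvt1 fell by 4.22 over 4 libraries (SE 0.64, adjusted p = 0.0343) and differed by -2.09 over 6 (SE 1.13, adjusted p = 0.228). Without KO 3 the Pvt1 call over 4 libraries ended, with an adjusted p of 0.0509, while Myc stayed past the threshold with any 1 of the 4 libraries left out. Such a fit leaves 1 library in an arm, which is assumed to vary like the other group, so a call kept there is no sign of stability.

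Mycn, the paralog that activates the same kind of genes and is known from neural progenitors, stood on the other side. Mycn (chr12:12936093-12941836) was measured at 3.43 CPM in WT 1, 2.89 CPM in WT 2 and 4.0 CPM in WT 3, against 7.36 CPM in KO 1, 4.1 CPM in KO 2 and 8.33 CPM in KO 3. The groups did not overlap, although the library labelled KO 2 exceeded WT 3 by little. Over 6 libraries the difference was 0.92 (SE 0.34, unadjusted p = 0.0331, adjusted p = 0.184). Over 4 libraries Mycn rose by 1.30 (SE 0.31), with an adjusted p of 0.0498 at the edge of the threshold. Leaving out KO 1, KO 3 or WT 2 ended that call, with an adjusted p of 0.155, 0.251 and 0.0656. The counts were low, from 56 to 160 per library. Mycl, a paralog outside the 10 genes, was spread widely, at 18.7, 18 and 29.4 CPM in the WT libraries and 12.1, 32.9 and 16.1 CPM in KO 1, KO 2 and KO 3, and did not pass the test in either comparison (adjusted p = 0.82 and 0.248).

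**Figure D1:**
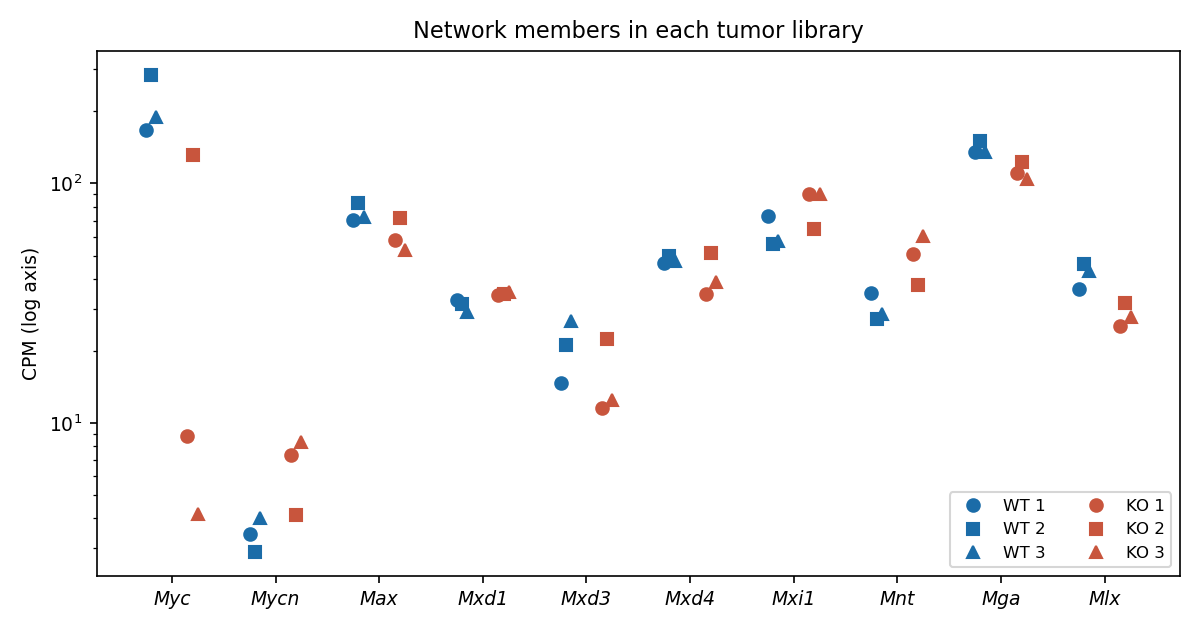
Level of each of the 10 network genes in CPM (log axis) in the 3 WT (blue) and 3 KO (red) libraries, with a point for each library and its shape giving the number. Myc drops from 168 to 285 CPM in WT to 8.78 and 4.17 CPM in KO 1 and KO 3 while KO 2 stays at 131 CPM, and the other 9 genes move within much narrower bands.

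Max, the partner that Myc, Mycn, the Mxd proteins, Mnt and Mga share, changed far less. Max was measured at 70.3 CPM in WT 1, 82.8 CPM in WT 2 and 72.6 CPM in WT 3, against 57.8 CPM in KO 1, 71.8 CPM in KO 2 and 52.9 CPM in KO 3. The library labelled KO 2 fell inside the WT range and the other 2 KO libraries below it. The difference was -0.33 over 6 libraries (SE 0.16, adjusted p = 0.208) and -0.48 over 4 (SE 0.18, adjusted p = 0.0989), so it did not pass the test in either.

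The 5 antagonists that compete with Myc for Max did not move as a block. Mnt, the most broadly expressed of them in mammals, was the clearest. It was measured at 34.8 CPM in WT 1, 27.2 CPM in WT 2 and 28.5 CPM in WT 3, against 50.8 CPM in KO 1, 37.5 CPM in KO 2 and 60.1 CPM in KO 3. All KO libraries, the library labelled KO 2 included, lay above all WT libraries. The difference was 0.70 over 6 libraries (SE 0.21, unadjusted p = 0.0164, adjusted p = 0.184) and 0.83 over 4 (SE 0.21, adjusted p = 0.0531). With the 4 libraries it passed in DESeq2 (adjusted p = 0.0208) and in edgeR's exact test (adjusted p = 0.0271), and not in edgeR's quasi-likelihood test or limma-voom (adjusted p = 0.0528).

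Mxi1, a Max partner that represses Myc targets through Sin3, was measured at 73.4 CPM in WT 1, 55.8 CPM in WT 2 and 57.6 CPM in WT 3, against 90.0 CPM in KO 1, 64.8 CPM in KO 2 and 90.2 CPM in KO 3. KO 1 and KO 3 were highest and nearly equal, while the library labelled KO 2 lay among the WT libraries. Its difference was 0.38 over 6 libraries (SE 0.19, adjusted p = 0.209) and 0.47 over 4 (SE 0.20, adjusted p = 0.125). Mxd1, an antagonist induced in differentiating cells, was the flattest member, with 32.7, 31.5 and 29.0 CPM in the WT libraries and 34.2, 34.5 and 35.2 CPM in KO 1, KO 2 and KO 3. Its groups did not overlap, yet the difference was only 0.14 over 6 libraries (SE 0.12, adjusted p = 0.413) and 0.10 over 4 (SE 0.17, adjusted p = 0.655).

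Mxd3 and Mxd4 had lower values in KO 1 and KO 3. Mxd3, which unlike the other Mxd genes is known from cells in S phase, was measured at 14.7, 21.1 and 26.5 CPM in WT 1, WT 2 and WT 3, against 11.5, 22.4 and 12.5 CPM in KO 1, KO 2 and KO 3. The library labelled KO 2 lay in the middle of the WT range, and the difference was -0.44 over 6 libraries (SE 0.35, adjusted p = 0.365) and -0.59 over 4 (SE 0.27, adjusted p = 0.15). Mxd4, an antagonist of differentiated cells, was measured at 46.7, 50.0 and 47.3 CPM in WT 1, WT 2 and WT 3, against 34.4, 51.3 and 38.7 CPM in KO 1, KO 2 and KO 3. The WT libraries agreed closely and the library labelled KO 2 stood just above them, so the groups overlapped. Its difference was -0.23 over 6 libraries (SE 0.18, adjusted p = 0.361) and -0.41 over 4 (SE 0.17, adjusted p = 0.122).

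Mga, a Max partner with an additional T-box domain that is the scaffold of the Polycomb complex PRC1.6, was measured at 135 CPM in WT 1, 151 CPM in WT 2 and 136 CPM in WT 3, against 111 CPM in KO 1, 123 CPM in KO 2 and 104 CPM in KO 3. The groups did not overlap, and the difference was -0.34 over 6 libraries (SE 0.14, unadjusted p = 0.0487, adjusted p = 0.184) and -0.42 over 4 (SE 0.19, adjusted p = 0.139). Mlx, the hub of the Mondo arm, was measured at 36.1 CPM in WT 1, 45.9 CPM in WT 2 and 42.9 CPM in WT 3, against 25.3 CPM in KO 1, 31.7 CPM in KO 2 and 27.7 CPM in KO 3. The library labelled KO 2 lay with the other KO libraries here, below every WT library. The difference was -0.58 over 6 libraries (SE 0.17, unadjusted p = 0.0129, adjusted p = 0.184) and -0.64 over 4 (SE 0.21, adjusted p = 0.0766). The 2 Mondo genes, which are not among the 10, had neither call. Mlxip (MondoA) ranged from 52.0 to 59.2 CPM in WT and from 45.1 to 55.8 CPM in KO (adjusted p = 0.363 over 6 and 0.307 over 4), and Mlxipl (ChREBP) from 1.86 to 3.19 CPM in WT and from 3.52 to 4.73 CPM in KO (adjusted p = 0.216 and 0.218). Mlx shares part of its span with Psmc3ip and Mxd3 part of its span with Prelid1, and whether counting used the strand is not given in the sources used here, so reads of these pairs may not be fully separated.

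**Figure D2:**
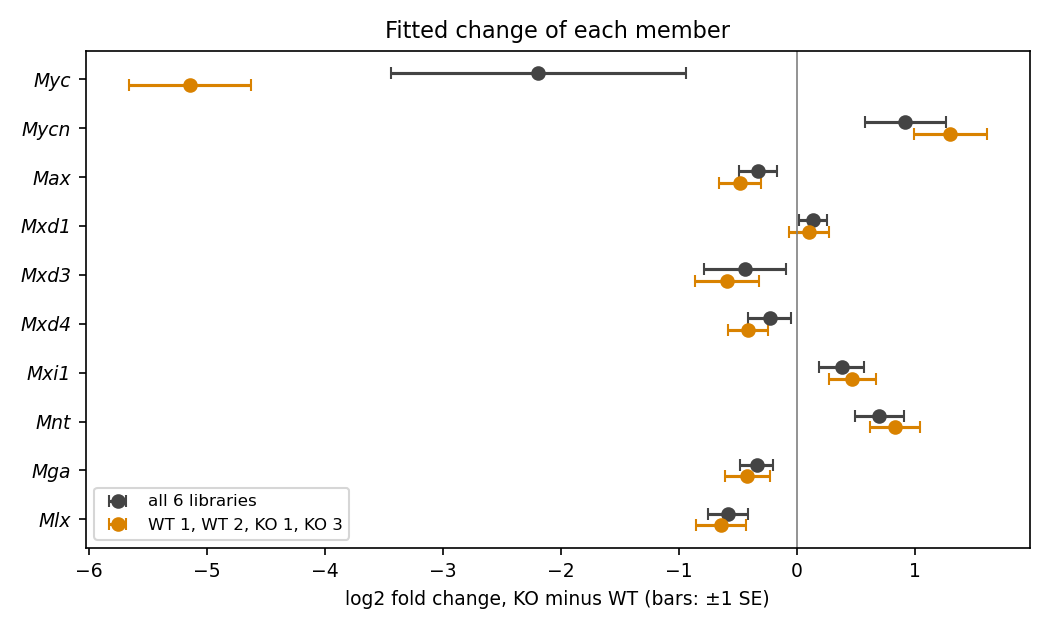
Log2 fold change of each network gene, KO minus WT, with bars of 1 SE on each side, over 6 libraries (grey) and over 4 libraries in orange (WT 1, WT 2, KO 1 and KO 3). Myc stands alone at -2.19 and -5.14, while the other 9 genes lie between -0.64 and 1.30 in both comparisons.

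Counted together, 6 members had a negative and 4 a positive log2 fold change in both comparisons. Over 6 libraries no member passed an adjusted p under 0.05 by edgeR's quasi-likelihood test. At an unadjusted p under 0.05, 2 were lower (Mga and Mlx) and 2 higher (Mycn and Mnt), beside 11.9% and 15.2% of all genes. No member was called with the 6 libraries by DESeq2, edgeR's exact test or limma-voom. Over 4 libraries 1 member fell (Myc) and 1 rose (Mycn), beside 13.9% and 2.87% of all genes. The groups of 3 did not overlap for 3 members lower in KO (Myc, Mga and Mlx) and for 3 higher in KO (Mycn, Mxd1 and Mnt), beside 14.6% and 13.2% of all genes. With so few members these counts are given as a description. Without the library labelled KO 2, the remaining 5 libraries gave 7 members called, 4 lower and 3 higher, and Myc fell by 5.05 (adjusted p = 0.00798), but in that fit 4608 genes fell and 3986 rose. Without WT 1, the 4 libraries became 3 and gave 8 members called, beside 4508 genes that fell and 4240 that rose of 16388, while leaving out KO 1, KO 3 or WT 2 left 1, which was Myc each time.

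The library labelled KO 2 did not side with 1 group across the network. Its CPM lay within the WT range for 3 members (Max, Mxd3 and Mxi1), below it for 3 (Myc, Mga and Mlx) and above it for 4 (Mycn, Mxd1, Mxd4 and Mnt). In size it was close to the WT mean for most of them. As log2 of CPM over the WT mean, it stood at -0.71 for Myc, where KO 1 stood at -4.61 and KO 3 at -5.69, and at 0.25 for Mycn, where KO 1 stood at 1.10 and KO 3 at 1.28.

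Between genes, levels were compared per length in FPKM. In WT tumors Myc was highest with 95.7 FPKM ± 30.8 (SD, n = 3). Mxd4 (43.4 ± 2.97) and Max (40.6 ± 4.87) came next with overlapping ranges, although Mxd4 exceeded Max in each WT library. Mlx followed with 24.5 FPKM ± 3.73, then Mxd3 (17.1 ± 5.14), Mxi1 (12.8 ± 1.56) and Mga (10.7 ± 1.02), and within these 4 each range overlapped or touched the next, although Mlx exceeded Mxd3 in each WT library. Mxd1 (7.09 ± 0.396) and Mnt (6.99 ± 0.702) could not be told apart, and Mycn was lowest with 1.41 FPKM ± 0.217. In KO tumors Mxd4 (33.6 ± 10.7) and Max (29.3 ± 7.98) had the highest means, again with overlapping ranges. Mxd4 exceeded Max in KO 2 and KO 3, and both had 26.6 FPKM in KO 1. Myc held 57.5 FPKM in the library labelled KO 2 but 3.34 FPKM in KO 1 and 1.5 FPKM in KO 3, so its mean of 20.8 describes no single KO tumor. Mycn was still low, with 2.34 FPKM ± 0.592. Among the 10 genes Myc thus ranked first in every WT library and in the library labelled KO 2, ninth in KO 1 and last in KO 3.

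The make-up of the network differed mainly in Myc. Its share of the summed FPKM of the 10 genes was 32.4% in WT 1, 42.4% in WT 2 and 33.7% in WT 3, against 2.78% in KO 1, 26.3% in KO 2 and 1.29% in KO 3. The mean share was 26.1 percentage points lower in KO, and all KO libraries lay below all WT libraries (two-sided exact permutation test, p = 0.1, the smallest that 3 against 3 allows). Over 4 libraries, where no such test can pass, it was 37.4% in WT and 2.03% in KO. The 5 antagonists made up 29.3 to 36.9% of the sum in WT, 56.2% in KO 1, 42.8% in KO 2 and 59.7% in KO 3. In FPKM their amount was not higher, with a sum of 87.3 ± 4.74 (SD, n = 3) in WT and 76.9 ± 14.7 in KO (exact permutation p = 0.4), and 86.0 and 68.5 over 4 libraries. The log2 ratio of Myc plus Mycn to the antagonists was -0.16, 0.55 and -0.06 in WT 1, WT 2 and WT 3, close to parity, and -3.49, -0.66 and -4.00 in KO 1, KO 2 and KO 3. Its mean differed by -2.82 (exact permutation p = 0.1, the smallest possible) over 6 libraries and by -3.93 over 4. Without Myc, the remaining 9 genes summed to 165 FPKM ± 13.6 in WT and 131 ± 26.4 in KO (exact permutation p = 0.2), and to 164 and 116 FPKM over 4 libraries. The FPKM carry no TMM factors, which were 1.026 to 1.097 in WT, 0.911 in KO 1, 1.055 in KO 2 and 0.8636 in KO 3. Sums in KO 1 and KO 3 are thus lower beside WT than they would be on the CPM scale. Mxd1, for example, had a mean of 7.01 FPKM in KO and 7.09 in WT, but 34.6 and 31.1 CPM. How much of the differences in sums is scaling was not tested. Shares and ratios within a library are not affected.

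Within the activators the balance also shifted. Myc over Mycn in FPKM was 53.1, 107 and 51.4 in WT 1, WT 2 and WT 3, against 1.29, 34.6 and 0.541 in KO 1, KO 2 and KO 3. The activator with the higher level was thus Myc in all but KO 3. Myc over Max was 1.97 to 2.84 in WT, 1.5 in the library labelled KO 2, 0.125 in KO 1 and 0.0649 in KO 3.

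**Figure D3:**
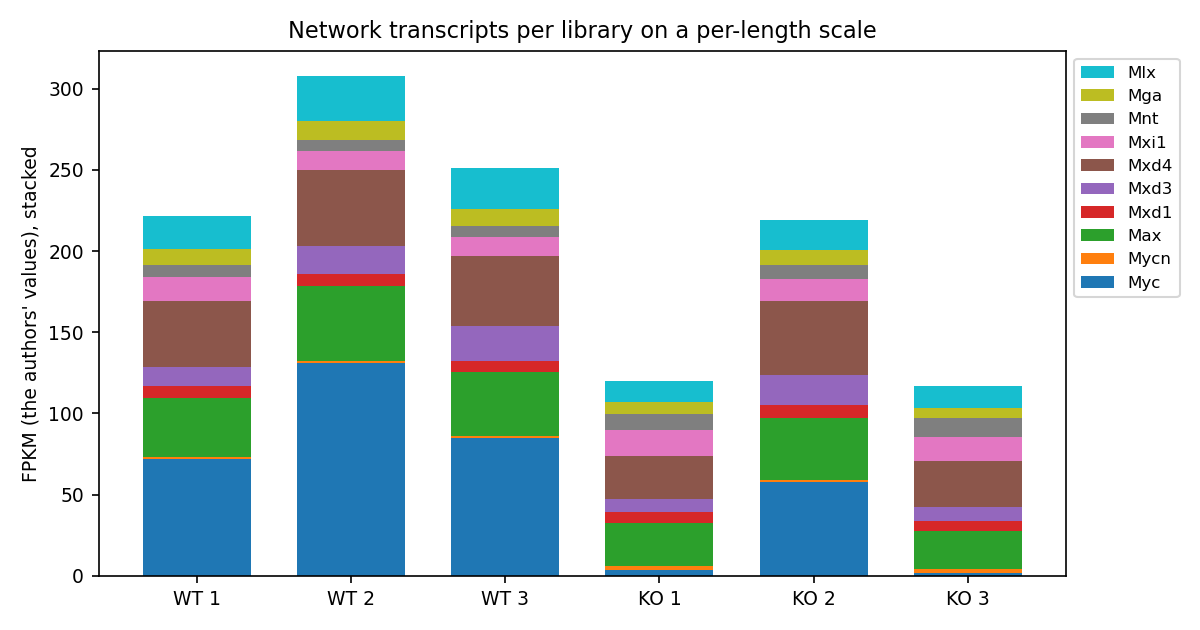
FPKM of the 10 network genes stacked in each library, with a colour for each gene and Myc at the base of the bar. Myc fills 71.9 to 131 FPKM of the bar in WT and 57.5 in KO 2, but 3.34 in KO 1 and 1.5 in KO 3, and the rest of the bar varies less.

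Most genes that textbooks give as activated by Myc had lower values in KO. The list holds 40 genes, all measured. Over 4 libraries 37 had a negative log2 fold change, 27 fell and 0 rose at an adjusted p under 0.05 by edgeR's quasi-likelihood test, beside 13.9% and 2.87% of all genes, with 35 lower and 0 higher when p was unadjusted, beside 26.2% and 19.9% of all genes. The median log2 fold change was -1.32, beside -0.03 for all genes. Over 6 libraries the median was -1.08 beside -0.02, 0 passed the adjusted threshold, and an unadjusted p under 0.05 was reached by 27 in the lower and 0 in the higher direction, beside 11.9% and 15.2% of all genes. DESeq2 called 8 and the exact test 1 of them over 6 libraries. The KO libraries all lay below the WT libraries for 24 of the 40, and for 0 above them, beside 14.6% and 13.2% of all genes. The list was written with earlier results of these tumors known, so its direction is no independent evidence. The count of 27 depended on the pair of KO libraries, since it became 10 without KO 1 and 2 without KO 3.

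By function, each group of targets had members that fell over 4 libraries. In nucleotide synthesis and one-carbon metabolism 7 of 8 fell. Shmt1, which moves one-carbon units in the cytosol, had 46.7, 87.7 and 77.1 CPM in the WT libraries and 5.25, 35.2 and 3.07 CPM in KO 1, KO 2 and KO 3. Shmt1 fell by 4.03 (SE 0.46, adjusted p = 0.0343), the most of the list. Its mitochondrial counterpart Shmt2 fell by 2.81. Cad, which starts pyrimidine synthesis, fell by 2.24. Among nucleolar genes 6 of 8 fell, with a median of -1.47. Both polyamine enzymes, Odc1 and Srm, fell. In cell cycle entry 4 of 5 fell, with a median of -2.43. E2f2, an E2F that drives S phase genes, fell by 3.25. Of the 6 glycolysis and transport genes 2 fell. Hk2, the hexokinase of dividing cells, fell by 2.60, and Slc7a5, an amino acid transporter, fell by 2.23. The glucose transporter gene Slc2a1 had the highest value of the list, 0.35 (adjusted p = 0.193). Of the 3 translation initiation factors 1 fell, with a median of -0.85.

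E-boxes in the promoters of these targets are shown for the 4 that had one and fell over 4 libraries. Of 34 targets with a promoter window, 10 held CACGTG, in 11 of 41 windows (26.8%, beside 9.18% for windows of genes in the table). The site nearest before the start is given for the DNA repair gene Apex1 (chr14:50924913-50924942, plus strand), the cell cycle kinase gene Cdk4 (chr10:127063512-127063541, plus strand), the chaperonin gene Hspd1 (chr1:55088306-55088335, minus strand) and Impdh2 of guanine nucleotide synthesis (chr9:108560314-108560343, plus strand).
Apex1: gcgctccagaacCACGTGggggcggagccc
Cdk4: aagggtgaagatCACGTGtccagaacgtcc
Hspd1: ggccggctgggaCACGTGaaaaggccgcgc
Impdh2: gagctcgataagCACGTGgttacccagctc
Cdk4 held 4 such sites in its window. Over 4 libraries Apex1 fell by 1.65, Cdk4 fell by 2.43, Hspd1 fell by 1.79 and Impdh2 fell by 1.56. With an E-box, 4 of 10 fell and the median was -1.15, and without one 19 of 24 fell and the median was -1.36, given here as counts with no test.

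Genes that Myc is known to repress showed no common direction. Of 8, over 4 libraries 0 fell and 1 rose, beside 13.9% and 2.87% of all genes, and the median was -0.01 beside -0.03 for all genes. The riser was Pdgfrb, the PDGF receptor of pericytes, from 19.9, 16.8 and 20.3 CPM in the WT libraries to 37.9, 22.0 and 31.9 CPM in KO 1, KO 2 and KO 3 (0.92, SE 0.21, adjusted p = 0.0473), a call lost without KO 1, KO 3 or WT 2. The cell cycle inhibitor gene Cdkn2b was lowest at -2.53 (adjusted p = 0.0521) on 0.364 to 4.81 CPM, and the hypoxia-responsive Ndrg1 was highest at 1.12 (adjusted p = 0.133).

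**Figure D4:**
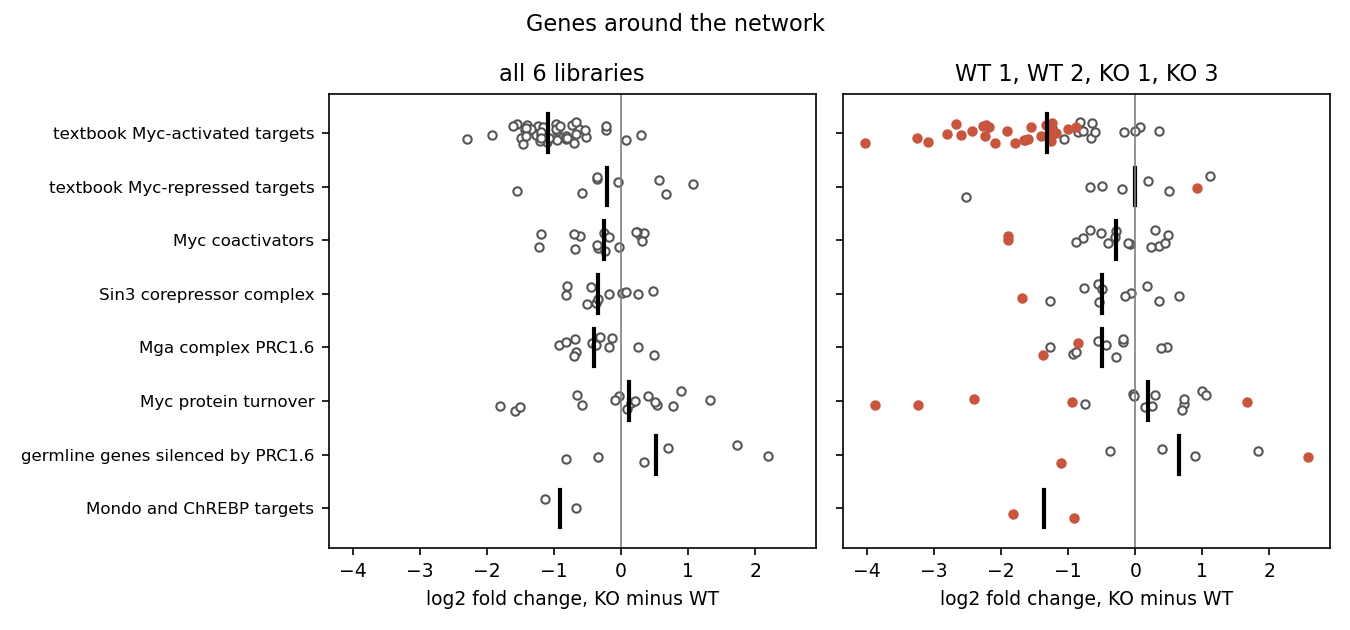
Log2 fold change (KO minus WT) of every tested gene in each list of network targets and cofactors over 6 libraries (left) and 4 libraries (right), with a circle for each gene, filled at an adjusted p under 0.05, vertical jitter only for legibility and a black bar at the list median. No circle is filled on the left, and on the right the Myc-activated list has 27 of 40 filled with its median at -1.32.

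Genes of the complexes that members recruit were called over 4 libraries no more often than all genes. Of 11 genes of the Sin3 corepressor used by the Mxd proteins, 1 fell and 0 rose over 4 libraries, beside 13.9% and 2.87% of all genes, while 8 had a negative value, the median was -0.50 beside -0.03 for all genes, and 5 were lower when p was unadjusted, beside 26.2%. Sap30, a bridging subunit, fell by 1.69 (SE 0.31, adjusted p = 0.0368), while Sap18 had the highest value at 0.65 (adjusted p = 0.0773). Of 16 Myc coactivators 2 fell and 0 rose, beside 13.9% and 2.87% of all genes. Their median was -0.29 beside -0.03 for all genes, and 6 were lower when p was unadjusted, beside 26.2%. Ruvbl2, a helicase of the TIP60 complex, fell by 1.90, its actin-related partner Actl6a fell by 1.90, and the elongation kinase gene Cdk9 had the highest value at 0.48 (adjusted p = 0.0868). Without WT 1, where 4508 genes of the whole table fell and 4240 rose, 7 Sin3 and 9 coactivator genes were called.

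Among 16 tested genes acting on the stability of Myc protein, 4 fell and 1 rose over 4 libraries, beside 13.9% and 2.87% of all genes. Fbxw7, the ubiquitin ligase subunit that marks Myc for degradation, was measured at 118, 68.3 and 93.3 CPM in the WT libraries and at 257, 113 and 340 CPM in KO 1, KO 2 and KO 3. It rose by 1.67 over 4 libraries (SE 0.35, adjusted p = 0.0416), with the library labelled KO 2 among the WT libraries. In the other direction, Plk1 fell by 3.89, Aurka fell by 3.24, Skp2 fell by 2.41 and Usp37 fell by 0.94. Plk1 and Aurka are mitotic kinases and Skp2 is a ligase subunit of S phase entry, and Plk1 also stands in the proliferation list given below.

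Mga's own complex had 2 of 12 genes that fell and 0 that rose over 4 libraries, a share near the 13.9% of all genes that fell. A negative value was found for 10 of the 12, and the median was -0.49 beside -0.03 for all genes. When p was unadjusted, 6 were lower and 1 higher, beside 26.2% and 19.9% of all genes. Tfdp1, the partner of E2F factors, fell by 1.38 (SE 0.24, adjusted p = 0.0345), and the ubiquitin ligase gene Rnf2 fell by 0.86 (SE 0.18, adjusted p = 0.0425). Ring1, the paralog of Rnf2, had the highest value at 0.47 (adjusted p = 0.105). Of 12 germline genes that this complex is known to silence, 7 were in the table and 6 tested, of which 1 fell and 1 rose, too few to read against 13.9% and 2.87% of all genes. Taf7l, a testis form of a basal transcription factor, was measured at 0.286, 0.310 and 0.296 CPM in the WT libraries and at 2.05, 0.579 and 1.56 CPM in KO 1, KO 2 and KO 3. All KO libraries were higher, on few reads, and it rose by 2.57 over 4 libraries (SE 0.46, adjusted p = 0.0352). Tdrkh, of the piRNA pathway, fell by 1.11 (adjusted p = 0.0406). An E-box stood in 8 of 13 promoter windows of the germline list (61.5%), and that of Taf7l (chrX:134476522-134476551, minus strand) is shown because Taf7l was the germline gene that rose.
Taf7l: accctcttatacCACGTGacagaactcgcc
Its flanks differ from those of the 4 member sites given above.

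Both measured targets of the Mlx and Mondo pair fell over 4 libraries, too few genes to read against the 13.9% of all genes that fell. Txnip, an inhibitor of thioredoxin and glucose uptake, was measured at 52.7, 55.1 and 58.3 CPM in the WT libraries and at 32.1, 48.2 and 25.4 CPM in KO 1, KO 2 and KO 3, so the groups did not overlap. Txnip fell by 0.92 (SE 0.20, adjusted p = 0.0431). Its relative Arrdc4 was measured at 27.5, 41.1 and 44.4 CPM in the WT libraries and at 11.2, 32.5 and 8.33 CPM in KO 1, KO 2 and KO 3. Its groups overlapped through the library labelled KO 2, and over 4 libraries Arrdc4 fell by 1.82 (SE 0.31, adjusted p = 0.0343). The third gene of the list, Pklr, has no value here. Over 6 libraries none of the genes of the lists of repressed targets, cofactors, turnover, PRC1.6, germline and Mondo targets passed an adjusted p under 0.05 by edgeR's quasi-likelihood test, while an unadjusted p under 0.05 was reached by 15 of their 68 distinct genes that were lower and 5 that were higher, beside 11.9% and 15.2% of all genes. Over these 6 libraries DESeq2 called 2 genes of PRC1.6, 1 coactivator and 1 repressed target, and edgeR's exact test called 0 in each of these lists.

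Leaving out KO 3 removed every call named in the repressed, Sin3, coactivator, PRC1.6, germline and Mondo lists and left 1 of 5 in the turnover list (Plk1). Leaving out KO 1 ended those of Pdgfrb, Sap30, Fbxw7, Usp37, Tfdp1, Rnf2, Taf7l, Tdrkh and Txnip, and leaving out WT 2 ended those of Pdgfrb and Taf7l. With KO 3 left out, 252 genes of the whole table fell and 0 rose.

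Summed markers of proliferation, glioma progenitors and neurons split as Myc did, with KO 1 and KO 3 apart. Endothelial and T cell sums did not. The summed level of 12 proliferation genes was 1380 to 2500 CPM in WT, 1520 CPM in KO 2, 165 CPM in KO 1 and 71.2 CPM in KO 3. The 8 glioma progenitor genes summed to 1470 to 1910 CPM in WT, 1860 CPM in KO 2, 557 CPM in KO 1 and 371 CPM in KO 3. The 10 neuron genes summed to 1720 to 5360 CPM in WT, 4600 CPM in KO 2, 12500 CPM in KO 1 and 15100 CPM in KO 3. KO 1 and KO 3 were thus low in tumor and division markers and high in neuron markers, whereas the library labelled KO 2 lay inside the WT range in all 3 sums. Myelinating oligodendrocyte genes ran from 1360 to 3480 CPM in WT and from 3320 to 7740 CPM in KO, astrocyte genes from 3190 to 4200 CPM and from 4570 to 6630 CPM, and microglia and macrophage genes from 767 to 858 CPM and from 555 to 1080 CPM. Endothelial genes ran from 195 to 236 CPM in WT and from 174 to 232 CPM in KO, and T cell genes from 18.1 to 23.7 CPM and from 4.58 to 27.7 CPM. All 64 markers were in the table and none was at 0 in any library. In KO 3, however, Bub1 (0.0521 CPM) and Cd3d (0.104 CPM) were below the 0.156 CPM that 3 counts equal there. Over 4 libraries 11 of 12 proliferation and 7 of 8 progenitor genes fell, beside 13.9% of all genes. Not called were Top2a at -5.09 (adjusted p = 0.0536) and Sox10 at 0.31 (adjusted p = 0.615). Of 10 neuron genes 0 passed the threshold, beside 2.87% of all genes that rose. When p was unadjusted, 9 neuron genes were higher, beside 19.9% of all genes. Host cell lists also held genes that fell over 4 libraries, beside 13.9% of all genes. Among T cell genes 3 of 4 fell (Cd3e, Cd3d and Cd8a, but not Cd4, which was at 22.9 CPM in KO 1). Among microglia and macrophage genes 3 of 8 fell (Aif1, C1qa and Cd68). In that list 6 had a negative value and 2 a positive one. These 2 were P2ry12 at 0.94 (adjusted p = 0.123) and Cx3cr1 at 0.28 (adjusted p = 0.393). Of the astrocyte genes Gfap fell, at -2.26, and Gja1 rose by 1.42. The labelled tissue thus carried its glioma markers in every library, at lower levels in KO 1 and KO 3, and their part in the network's values was not tested.

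Myc, Mycn, Mnt and Mxd3 were also set beside these sums. Per 1000 CPM of proliferation markers, Myc stood at 122, 114 and 80.1 in the WT libraries and at 53.3, 85.8 and 58.5 in KO 1, KO 2 and KO 3, so the groups overlapped through the library labelled KO 2, and KO 1 and KO 3 were below every WT library. Per 1000 CPM of glioma progenitor markers it stood at 115, 149 and 106 in the WT libraries and at 15.8, 70.4 and 11.2 in KO 1, KO 2 and KO 3, and every KO library, the one labelled KO 2 included, was lower. Per 1000 CPM of neuron markers Mycn stood at 0.639, 1.68 and 1.21 in the WT libraries and at 0.587, 0.891 and 0.552 in KO 1, KO 2 and KO 3, where KO 1 and KO 3 were below every WT library and KO 2 overlapped. Per 1000 CPM of proliferation markers Mycn stood at 2.49, 1.16 and 1.69 in WT and at 44.7, 2.69 and 117 in KO 1, KO 2 and KO 3, so every KO library was higher. Per 1000 CPM of progenitor markers it stood at 2.33, 1.51 and 2.23 in WT and at 13.2, 2.21 and 22.4 in KO 1, KO 2 and KO 3, where the groups overlapped through the library labelled KO 2. The direction for Mycn thus differed with the list it was set against. Myc per 1000 CPM of neuron markers stood at 31.4, 166 and 57.2 in WT and at 0.701, 28.4 and 0.276 in KO 1, KO 2 and KO 3, all lower. Mnt per 1000 CPM of neuron markers stood at 6.5, 15.8 and 8.6 in the WT libraries. It stood at 4.05, 8.15 and 3.99 in KO 1, KO 2 and KO 3, again with overlap only through KO 2. Set against proliferation markers, Mnt was higher in KO 1 and KO 3, at 309 and 844 against 10.9 to 25.3 in WT. Against progenitor markers it was also higher there, at 91.2 and 162 against 14.2 to 23.7 in WT. The library labelled KO 2 lay inside the WT range in both, at 24.6 and 20.2. The direction for Mnt thus also differed with the list. Mxd3 was higher per proliferation markers in every KO library, but lower per neuron markers in KO 1 and KO 3, with KO 2 overlapping. These ratios were chosen after the values had been seen and carry no test.

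**Figure D5:**
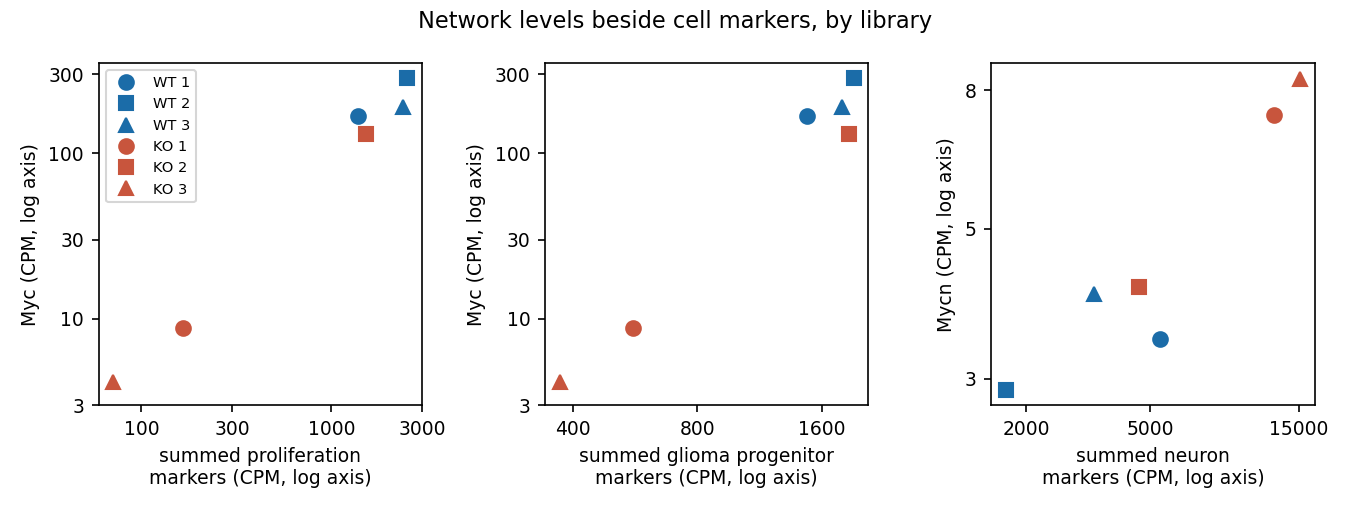
Myc against summed proliferation markers (left) and summed glioma progenitor markers (middle) and Mycn against summed neuron markers (right), in CPM on log axes, with a point for each of the 6 libraries. KO 1 and KO 3 stand apart from the other 4 libraries in all 3 panels, and KO 2 stands beside the WT libraries.

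Genes whose profile over the 6 libraries was most like that of a member were found by the root mean square difference of centred log2 CPM among 15293 genes with a mean of at least 1 CPM. Nearest to Myc were AI662270 (0.181), Peg12 (0.184) and Prr11 (0.209). Nearest to Mxd3 were Helb (0.0693), H2afz (0.0723) and Rras (0.0741), and nearest to Mxi1 were Arhgef12 (0.0212), Tcf20 (0.0235) and Fbxl20 (0.0247), all in log2 units. Peg12, an imprinted gene, followed Myc from 16.6, 29.5 and 19.6 CPM in the WT libraries to 0.685, 12.8 and 0.208 CPM in KO 1, KO 2 and KO 3. The likeness is over 6 libraries that fall into 2 clusters, so many genes with the same split come close.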

How the data were processed

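RNA-seq was measured in 6 tumor libraries, 3 from Esm1 WT and 3 from Esm1 KO hosts, grouped by the sample labels. The authors deposited whole-number read counts per gene without normalization, normalized signal values that are counts multiplied by a single factor per library (not used here), and FPKM per gene and library, computed by the authors on 1 length per gene. Their fold changes and p-values were not used. The submitters' processing notes name CASAVA 1.8.2, edgeR and mm10, whereas the study's methods name HTSeq, hg38, edgeR and an Ovation Ultralow kit in place of the NEBNext Ultra kit of the labels, and its reporting summary names STAR. The files' gene identifiers are mouse. No column of per-sample values was left without a sample. Total counts were 17632070 to 22241832 per library, and 3 counts, the limit that a count of 0 allows, equal 0.134 to 0.171 CPM (counting error only). Every gene of the deposited table has a largest count of at least 5.

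Fitting used edgeR 4.0.16 under R 4.3.3 (filterByExpr with a minimum count of 10 and a minimum total of 15, TMM, glmQLFit and glmQLFTest without covariates) and adjusted by Benjamini-Hochberg over all genes tested. Standard errors were derived from each log2 fold change and its F value. Fits were made over 6 libraries and over the 4 of the study's table. Nothing in the labels says that libraries are separate tumors beyond their numbers, and the study gives 3 mice per group. Members and lists were chosen with earlier results of these data known. Named genes were the 10 members, Esm1, Pvt1, Mycl, Mlxip, Mlxipl, and in each list the extremes and up to 4 further genes by smallest p over 4 libraries. Slc7a5, Odc1, Srm, Apex1, Cdk4, Hspd1 and Impdh2 fall outside that rule and were named after their values were seen. For Myc, Mxd3 and Mxi1 the 3 most alike genes were named. Likeness was the root mean square difference of centred log2 CPM (prior count 2). Single values per library were compared by exact two-sided permutation tests.

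Alternatives were DESeq2 1.42.0, limma-voom (limma 3.58.1), RLE and upper quartile scaling, no filter, each library left out, the replicate number as a block, a pseudocount of 1 in place of 0.1 on FPKM, and a minimum mean FPKM of 1. The exact test of edgeR and the network sums over 4 libraries were added after seeing the data. On simulated counts for the 6 libraries (16184 genes), the calls recovered 100% of 8-fold and 50% of 2-fold changes, and for the 4 libraries (16147 genes) 100% and 26%. The simulation gave every gene the same dispersion, had no split among KO libraries and changed only genes with higher mean counts. These shares therefore do not give the power in these tumors. Promoter windows came from RefSeq (GRCm38.p6), where 9 of 10 members matched and Myc did not. Figures used matplotlib 3.10.9, with pandas 2.3.3 and numpy 2.4.6 under Python 3.11.15.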

Additional observations from a re-analysis of the deposited data

How the results depend on the processing

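No member changed direction in 230 alternative values of the 10 members' log2 fold changes. With all 6 libraries, the Myc difference was -2.19 and ran from -5.05 to -1.65 with 1 library left out. It passed the threshold only without KO 2, at -5.05. Members called, 0 over 6 libraries, ran from 0 to 7 with 1 library left out, 7 of them without KO 2. Myc-activated targets called over 6 libraries were 8 in DESeq2 and 1 in edgeR's exact test, which was added after seeing the data, and ran from 0 to 35 with 1 library left out, 35 without KO 2. Over the whole table with 6 libraries, 0 genes were lower and 0 higher, beside 410 and 709 in DESeq2, 81 and 107 in the exact test, and 4608 and 3986 without KO 2.

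With 4 libraries, the Myc fall ran from -5.76 to -4.69 with 1 library left out and passed the threshold, but each such fit has 1 library in an arm, assumed to vary like the other group, and is no sign of stability. Members called, 2, were 1 without the filter and 1 with upper quartile scaling, since Mycn then had an adjusted p of 0.0512 and 0.0517, and ran from 1 to 8 with 1 library left out, 8 without WT 1. Myc-activated targets called, 27, ran from 2 to 36 with 1 library left out. In the other lists calls over 4 libraries ran from 0 without KO 3 to 7 without WT 1 in the Sin3 and PRC1.6 lists, from 0 to 9 among coactivators and from 1 to 10 in the turnover list, and DESeq2 called 3, 5, 3 and 9 in these lists. They ran from 0 to 2 for Mondo targets, from 0 to 4 for germline genes and from 0 to 5 for repressed targets. Over 6 libraries these lists had 0 calls with any library but KO 2 left out, and up to 10 without KO 2. Genes called over the whole table, 2244 lower and 464 higher, were 3162 and 2642 in DESeq2 and 3263 and 2622 in the exact test. Mycl and the germline gene Stag3, neither of which passed the test, changed sign when 1 library was left out. Mycl over 6 libraries ran from -0.64 to 0.15 and was positive without KO 1, KO 3 or WT 3, and Stag3 ran from -0.72 to 0.03 over 6 libraries (positive without WT 3) and from -0.84 to 0.28 over 4 (positive without WT 2). The cause was not tested.

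Libraries of WT and KO share numbers, but the deviations of libraries with the same number correlated at 0.549, 0.594 and -0.21, so the numbers were not taken as pairs, and WT 3 correlated best with KO 2. With the replicate number as a block the 6 libraries gave 0 members called, 0 genes called and a Myc difference of -3.69 (adjusted p = 0.0775). The 4 libraries share only 1 number, so no paired analysis was possible for them because too few pairs remain. Counts per library were low for Esm1 (1 to 82) and Mycn (56 to 160). With 3 or 2 libraries a group, the tests read spread between these libraries only, and 26% of simulated 2-fold changes were called with 4.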
